A study of Vulpes lagopus with 12 samples.

Results

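The 10 actin regulators followed here in Arctic fox blood are known from white blood cells: CORO1A, CFL1, PFN1, ARPC1B, ARPC2, ARPC3, ARPC5, WAS, LCP1 and CAPG. They were chosen by gene symbol, as every probe set whose only symbol in the array's annotation was one of these names. All 10 were found, with 18 probe sets, among 15115 genes and 42924 probe sets measured. A probe set is a group of short array probes read as 1 value. The study ran 12 Affymetrix Canine Genome 2.0 arrays, which hold dog probes. Arctic fox (Vulpes lagopus) blood was on 11 of them, in a study of polychlorinated biphenyls and mercury, and 1 was titled a canine control. The exposure, age and sex of each fox were not in the labels used here, so the foxes form 1 group, numbered 1 to 11 in the order of the series. The control array also bore the fox species label and the label blood, and its title is all that the labels say of its RNA.

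White blood cells crawl, engulf particles and form contacts by building and dismantling a mesh of actin filaments beneath the membrane. The Arp2/3 complex starts new filament branches from the side of old ones, and in blood cells it is switched on by WAS, the protein lost in Wiskott-Aldrich syndrome of humans. Profilin supplies actin monomers to growing ends, cofilin severs old filaments, and other proteins cap, bundle or debranch them. Loss of CORO1A in humans and mice leaves few circulating T cells, and loss of ARPC1B in humans gives an immune and platelet disorder.

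Values were log2 units made by the authors with RMA, and a gene was read from its probe set with the highest mean. Foxes 9, 10 and 11 stood apart from foxes 1 to 8 in many genes and in some array controls. A GAPDH control pair differed by 0.42 to 1.08 between its 3' and middle probe sets in foxes 9, 10 and 11, and by 2.56 to 3.19 in foxes 1 to 8. A second GAPDH pair overlapped between them, at −0.96 to −0.60 and −0.77 to −0.28. The spread of values within an array, as their SD, was 1.93 to 2.02 for foxes 9, 10 and 11, while it was 1.60 to 1.79 in foxes 1 to 8 and 2.11 for the control. The level of 8 general leukocyte genes, as the mean of their log2 values, was 11.98 to 12.90 in foxes 9, 10 and 11. It was 9.63 to 10.81 in foxes 1 to 8 and 8.74 for the control. The means of 8 liver, 7 intestinal and 7 skeletal muscle genes reached at most 7.54, 6.09 and 7.69 in the 11 foxes, and were 12.96, 12.44 and 11.85 on the control array. Blood is bulk tissue, so fewer cells of a type and less RNA per cell cannot be told apart.

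Among the foxes, most of the 10 actin regulators spread widely, with foxes 9, 10 and 11 at the upper end. CORO1A, CAPG, LCP1, PFN1, ARPC1B and ARPC2 were each higher in all of foxes 9, 10 and 11 than in any of foxes 1 to 8. ARPC3, ARPC5 and CFL1 leaned the same way with overlap, and WAS did not. That is 6 of 10 genes, where 14.2% of all 15115 genes had foxes 9, 10 and 11 all above and 14.6% all below. The means of foxes 9, 10 and 11 exceeded those of foxes 1 to 8 by 3.86 in CORO1A, 3.53 in ARPC1B and 3.43 in CAPG. The excess was 1.86 in ARPC2, 1.82 in LCP1, 1.59 in PFN1, 1.10 in CFL1, 0.89 in ARPC3 and 0.82 in ARPC5, and the difference was −0.10 in WAS, as in the median gene. Among the 7557 genes with a fox mean above that of the median gene the share above was 22.7%. After quantile normalization again the count was 5 of 10, where 9.08% of all genes had the 3 foxes all above. It was 8 after median centring (15.5% of all genes) and 7 with all probe sets of a gene averaged (15.6%). The 3 foxes were noticed in these data and no label used here names them as a group, so the split was not tested. Whether they formed a group in the study is not known.

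**Figure D1:**
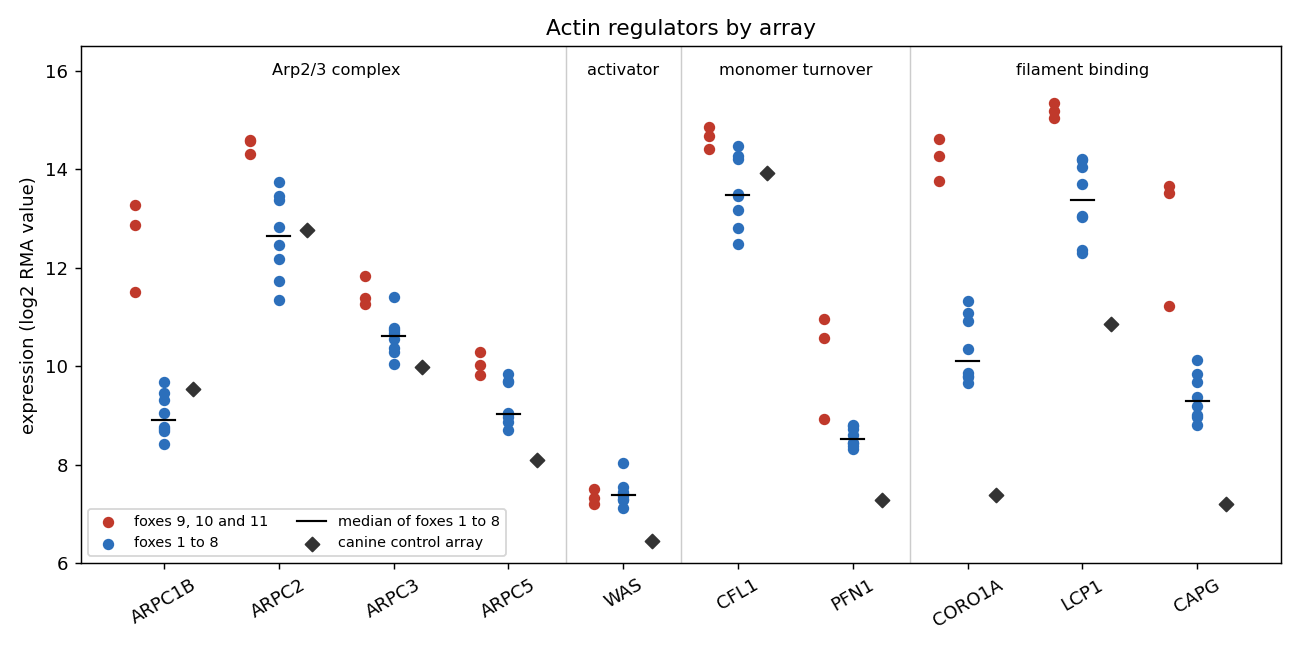
Log2 RMA values (vertical axis) of the 10 genes, 1 point per array, for foxes 9, 10 and 11 (red), foxes 1 to 8 (blue, median as a bar) and the canine control (diamond). CORO1A, CAPG and ARPC1B show a wide gap between red and blue points, and WAS shows none; values are to be compared within a gene.

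In the Arp2/3 complex, ARPC1B had the widest gap. ARPC1B, the subunit form of the complex that prevails in blood cells, stood at 12.87, 13.26 and 11.50 in foxes 9, 10 and 11, and at 8.42 to 9.67 (median 8.90) in foxes 1 to 8. No fox lay between 9.67 and 11.50. ARPC2, a core subunit that holds the complex to the mother filament, stood at 14.59, 14.58 and 14.31 in foxes 9, 10 and 11, and at 11.34 to 13.74 (median 12.64) in foxes 1 to 8. Its gap was narrow at 0.58, and foxes 1 to 8 themselves covered a wider range than that gap. ARPC3, a small subunit, stood at 11.39, 11.83 and 11.26 in foxes 9, 10 and 11, and at 10.04 to 11.41 (median 10.61) in foxes 1 to 8. Fox 2, at 11.41, lay above foxes 9 and 11 in this gene. ARPC5, the smallest subunit, stood at 10.02, 10.29 and 9.83 in foxes 9, 10 and 11, and at 8.70 to 9.83 (median 9.04) in foxes 1 to 8. Fox 4 and fox 11 were level in ARPC5.

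WAS, the activator of the complex, was even across foxes. It stood at 7.32, 7.20 and 7.50 in foxes 9, 10 and 11, and at 7.11 to 8.03 (median 7.39) in foxes 1 to 8. Fox 2 was the highest of the 11, and foxes 9, 10 and 11 lay inside the others. The fox mean of its 1 probe set, 7.41, was below that of the median gene, 7.66. Whether this evenness is that of a reading near background was not tested.

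Of the proteins that turn actin monomers over, PFN1 split by fox and CFL1 overlapped. PFN1, profilin, stood at 10.96, 10.57 and 8.93 in foxes 9, 10 and 11, and at 8.33 to 8.81 (median 8.52) in foxes 1 to 8. Fox 11 was only 0.12 above the highest of foxes 1 to 8, whereas foxes 9 and 10 were far above. CFL1, the non-muscle cofilin, stood at 14.66, 14.86 and 14.40 in foxes 9, 10 and 11, and at 12.49 to 14.47 (median 13.48) in foxes 1 to 8. Fox 2 lay just above fox 11.

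The filament-binding proteins CORO1A, CAPG and LCP1 each split without overlap. CORO1A, the coronin of blood cells, which binds filaments and Arp2/3, stood at 14.26, 14.60 and 13.75 in foxes 9, 10 and 11, and at 9.67 to 11.32 (median 10.11) in foxes 1 to 8. Its gap of 2.43 was the widest among the 10 genes. CAPG, which caps the fast-growing filament end in macrophages and other cells, stood at 13.52, 13.66 and 11.23 in foxes 9, 10 and 11, and at 8.81 to 10.13 (median 9.29) in foxes 1 to 8. Fox 11 again lay between the other 2 and the 8. LCP1, the plastin that bundles filaments in leukocytes, stood at 15.18, 15.35 and 15.03 in foxes 9, 10 and 11, and at 12.30 to 14.21 (median 13.37) in foxes 1 to 8. In this LCP1 probe set the 3 foxes lay close together, as they did in ARPC2. In another LCP1 probe set fox 11, at 11.15, lay well below foxes 9 and 10, at 12.998 and 13.31.

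Measured over all 11 foxes, SDs were 1.90 for CORO1A, 1.76 for CAPG, 1.74 for ARPC1B, 1.13 for ARPC2 and 1.08 for LCP1. They were 0.90 for PFN1, 0.80 for CFL1, 0.55 for ARPC3, 0.54 for ARPC5 and 0.24 for WAS. In total 9 of 10 genes had an SD of at least 0.5, where 18.3% of all genes did. Within foxes 1 to 8 this held for 4, namely ARPC2 (0.86), LCP1 (0.79), CFL1 (0.72) and CORO1A (0.67), where 9.61% of all genes did. After quantile normalization of the arrays again, 5 of 10 reached 0.5 over the 11 foxes, and 13.5% of all genes did. The SD of PFN1 within foxes 1 to 8 was 0.19.

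Within foxes 1 to 8 most actin regulators ranked the animals alike. Foxes 2, 4 and 8 were the 3 highest of the 8 in 8 of 10 genes, all but WAS and PFN1, where 7.95% of all genes showed this. Among genes with a fox mean above that of the median gene it was 13.9%. In ARPC2, fox 2 lay 1.10 above the mean of foxes 1 to 8, fox 4 lay 0.82 above and fox 8 lay 0.73 above. Foxes 1 and 5 lay below it, at −1.29 and −0.90. In LCP1 the same foxes lay 0.68, 0.85 and 0.83 above, and foxes 1 and 5 lay at −1.06 and −1.01. CFL1 and CORO1A followed this order of high and low foxes, whereas PFN1 stayed within 0.25 of its mean in all 8. The root mean square difference between the centred values of 2 genes over these 8 foxes was 0.18 for ARPC1B and ARPC5, 0.20 for ARPC2 and LCP1 and 0.23 for CFL1 and LCP1, against 0.80 for ARPC2 and PFN1.

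**Figure D2:**
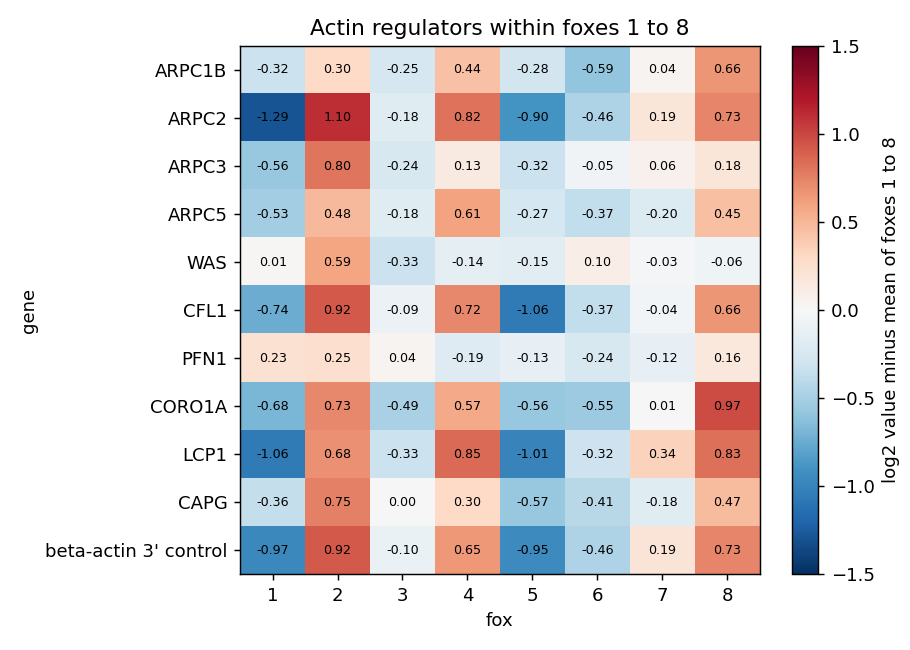
Log2 value minus the mean of foxes 1 to 8 (colour and printed number) for the 10 genes and a beta-actin 3' control probe set (rows) in foxes 1 to 8 (columns). Foxes 2, 4 and 8 are above the mean and foxes 1 and 5 below it in ARPC2, CFL1, CORO1A and LCP1. PFN1 stays within 0.25 of its mean, and WAS is above 0.5 in fox 2 only.

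The pattern was picked out after the values were seen, and other measures moved with it. The array's 3' control probe set for beta-actin, the protein these regulators act on, had the same 3 foxes highest, with fox 2 at 0.92, fox 4 at 0.65 and fox 8 at 0.73 above the mean of the 8. The same 3 were also highest in a GAPDH 3' control, in the spread of values within an array, and in the mean levels of the general leukocyte, neutrophil, monocyte and platelet marker lists. Foxes 2, 4 and 8 were not the 3 highest for T cell, B cell, NK or red cell lists. The middle and 5' control probe sets for beta-actin had foxes 8, 4 and 1 highest. The part of array spread or of cell makeup in this order was not tested. With the arrays quantile-normalized again the 3 foxes were highest in 6 of 10 genes, and in 3.02% of all genes.

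The split of foxes 9, 10 and 11 also came with changes in marker levels. All 3 lay above foxes 1 to 8 in 7 of 8 general leukocyte genes, 5 of 6 monocyte genes, 5 of 8 T cell genes, 4 of 6 NK and cytotoxic genes, 3 of 6 platelet genes, 2 of 6 neutrophil genes, 1 of 7 B cell genes and 0 of 5 red cell genes. Over all genes the share with the 3 foxes all above was 14.2%. It was 22.7% among genes with a fox mean above that of the median gene. PTPRC, the leukocyte phosphatase CD45, stood at 12.98, 13.15 and 12.04 in foxes 9, 10 and 11. Foxes 1 to 8 covered 9.22 to 12.03 in PTPRC, so its gap was only 0.01. The monocyte receptor CD14 stood at 11.16, 11.44 and 10.94 in foxes 9, 10 and 11, and at 9.54 to 9.95 in foxes 1 to 8. The beta-actin controls split in their middle and 5' probe sets. The middle set read 9.47 to 10.15 in foxes 9, 10 and 11 and 8.0 to 8.27 in foxes 1 to 8, and the 5' set 8.18 to 9.83 and 6.92 to 7.40. A control probe set for the bacterial gene dap read 13.20 to 14.04 in foxes 9, 10 and 11 and 9.57 to 12.87 in foxes 1 to 8. One for the bacterial gene bioB leaned the other way with overlap, at 8.95 to 9.73 and 9.63 to 12.23. The part of cell makeup and of target preparation in the split was not tested.

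Against the canine control array, with each gene read from 1 probe set, foxes were higher in LCP1, ARPC5 and WAS. The other 7 genes were not called. The comparison asks how far these genes in fox blood lay from the control RNA. By limma with Benjamini-Hochberg adjustment over all probe sets and a threshold of 0.05, 3 of 10 genes were called higher in foxes and 0 lower. Of all genes, 44.6% were called higher and 18.5% lower in foxes. The median difference of the 10 was 1.16, and that of all genes was 0.53. At an unadjusted p under 0.05 CORO1A was also higher, and no gene was lower. The single control array has no replicate, its spread was taken to equal that of the foxes, and an exact permutation test of 11 against 1 cannot give a p under 0.0833. On that array the liver, intestinal and muscle genes were high and the general leukocyte genes low. Its neutrophil, monocyte, T cell and B cell means also fell below every fox. Its NK and cytotoxic mean did not: 7.90 exceeded foxes 1 to 8 (highest 7.79) and was under foxes 9, 10 and 11 (lowest 8.14). Single genes could differ from their list, as CD3G (8.025) and GZMA (9.30) topped every fox there. The tissue of the control RNA and its species thus cannot be told apart here.

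LCP1 averaged 13.86 ± 1.08 in the foxes (SD, n = 11) and was 10.86 on the control. The limma difference was 3.0 (SE 1.02, adjusted p = 0.0232), and the control lay below all 11 foxes. ARPC5 averaged 9.45 ± 0.54 in the foxes (SD, n = 11) and was 8.09 on the control, a limma difference of 1.36 (SE 0.52, adjusted p = 0.0378). This call was lost without fox 8 (adjusted p = 0.0512) and after median centring of the arrays (adjusted p = 0.110). WAS averaged 7.41 ± 0.24 in the foxes (SD, n = 11) and was 6.45 on the control, a limma difference of 0.96 (SE 0.25, adjusted p = 0.00559). This was 0.43 above the difference of the median gene. The 5 member probe sets with an SD under 0.5, that of WAS included, all differed by 0.92 to 1.24. The median of all probe sets was 6.85 on the control array and 7.06 to 7.17 in the foxes. Whether the WAS difference is particular to this gene was not tested.

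CORO1A, CAPG and PFN1 lay above the control in every fox but were not called. CORO1A averaged 11.40 ± 1.90 in the foxes (SD, n = 11) and was 7.39 on the control, a limma difference of 4.01 (SE 1.79, adjusted p = 0.0677). CAPG averaged 10.31 ± 1.76 in the foxes and was 7.20 on the control, a limma difference of 3.12 (SE 1.65, adjusted p = 0.118). PFN1 averaged 9.0 ± 0.90 in the foxes and was 7.30 on the control, a limma difference of 1.70 (SE 0.85, adjusted p = 0.0991). Without foxes 9, 10 and 11, which widen the spread, limma called all 3 higher in foxes 1 to 8, and 6 of 10 genes in all, where 51.6% of all genes were then called higher. The differences were then 2.96 for CORO1A (adjusted p = 0.00155), 2.18 for CAPG (adjusted p = 0.00129) and 1.27 for PFN1 (adjusted p = 0.000379). Limma also called CORO1A after quantile normalization again, at 3.85 (adjusted p = 0.0259), and with all its probe sets averaged, at 2.98 (adjusted p = 0.0399).

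ARPC3 averaged 10.85 ± 0.55 in the foxes (SD, n = 11) and was 9.98 on the control, below all 11, with a limma difference of 0.87 (95% interval −0.28 to 2.02). In ARPC1B, ARPC2 and CFL1 the control lay inside the foxes. The control read 9.55 for ARPC1B, 12.75 for ARPC2 and 13.91 for CFL1. The limma difference was 0.43 for ARPC1B (95% interval −3.13 to 3.99), 0.39 for ARPC2 (−1.93 to 2.70) and −0.07 for CFL1 (−1.71 to 1.57). Without foxes 9, 10 and 11 those of ARPC1B and ARPC2 were −0.54 and −0.12, and none was called. After quantile normalization again limma called all but ARPC1B of these 4 genes higher in foxes, ARPC3 by 1.65 (adjusted p = 7.9e-05), ARPC2 by 1.47 (adjusted p = 0.0144) and CFL1 by 1.06 (adjusted p = 0.00192). In all, the control lay below all 11 foxes in 7 of 10 genes, where 56.1% of all genes had this, and above all foxes in 0.

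**Figure D3:**
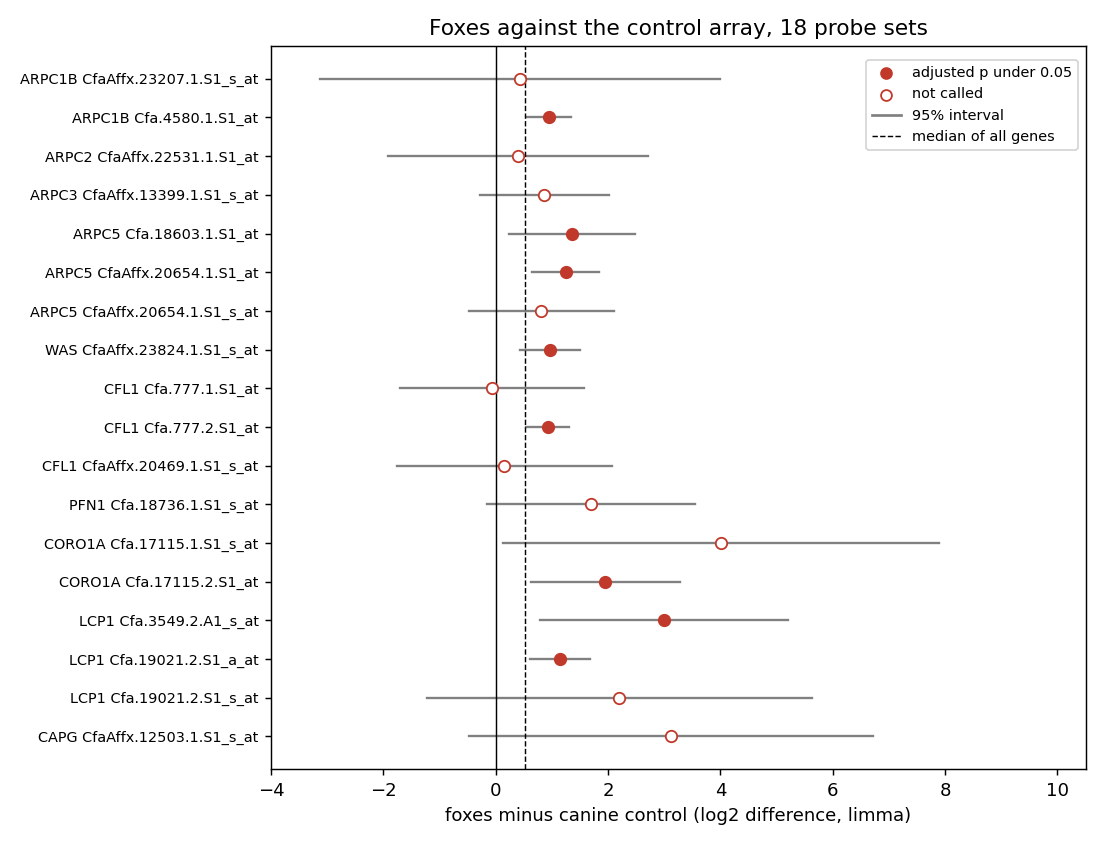
Foxes minus canine control (log2 difference by limma, horizontal axis, bars for the 95% interval) for the 18 probe sets; filled points had an adjusted p under 0.05, and the dashed line is the median of all genes. Narrow bars near 1 belong to probe sets that were even across foxes, and the wider bars to those with an SD over foxes of at least 0.5.

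Probe sets of a gene often disagreed. In 5 of the 10 genes there were several probe sets, and in each of these but CORO1A at least 1 was even across foxes while another was not. Of the 18 probe sets, 10 had foxes 9, 10 and 11 all above foxes 1 to 8, where 12.6% of all probe sets did. The SD over foxes was 0.5 or more in 13, where 14.8% of all probe sets had this. The 5 even ones were those of WAS and 1 each of ARPC1B, ARPC5, CFL1 and LCP1.

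For LCP1, a further probe set ending in _s_at stood at 12.998, 13.31 and 11.15 in foxes 9, 10 and 11, and at 8.43 to 9.88 (median 9.01) in foxes 1 to 8. The LCP1 probe set ending in _a_at, which marks alternative transcripts of 1 gene, stood at 6.80, 6.90 and 6.56 in foxes 9, 10 and 11, and at 6.81 to 7.32 (median 7.17) in foxes 1 to 8, so that the 3 foxes leaned low. For ARPC1B, the second probe set, ending in _at, stood at 7.27, 7.42 and 7.24 in foxes 9, 10 and 11, and at 7.27 to 7.71 (median 7.46) in foxes 1 to 8. The gap seen in the other ARPC1B probe set was absent there.

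For CFL1, the probe set ending in _s_at stood at 14.98, 15.06 and 14.30 in foxes 9, 10 and 11, and at 12.55 to 14.00 (median 13.02) in foxes 1 to 8, without overlap. The even one, ending in _at, overlapped and stood at 9.51, 9.38 and 9.09 in foxes 9, 10 and 11, and at 9.31 to 9.69 (median 9.49) in foxes 1 to 8. For ARPC5, the probe set ending in _s_at split without overlap, at 9.999, 10.18 and 9.64 in foxes 9, 10 and 11, and at 8.26 to 9.16 in foxes 1 to 8. The second one ending in _at overlapped, at 6.43, 6.14 and 6.07 in foxes 9, 10 and 11, and at 5.59 to 6.55 in foxes 1 to 8. The second CORO1A probe set split as the first did, with a gap of 0.36, at 9.45, 9.94 and 8.92 in foxes 9, 10 and 11, and at 7.84 to 8.57 in foxes 1 to 8.

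**Figure D4:**
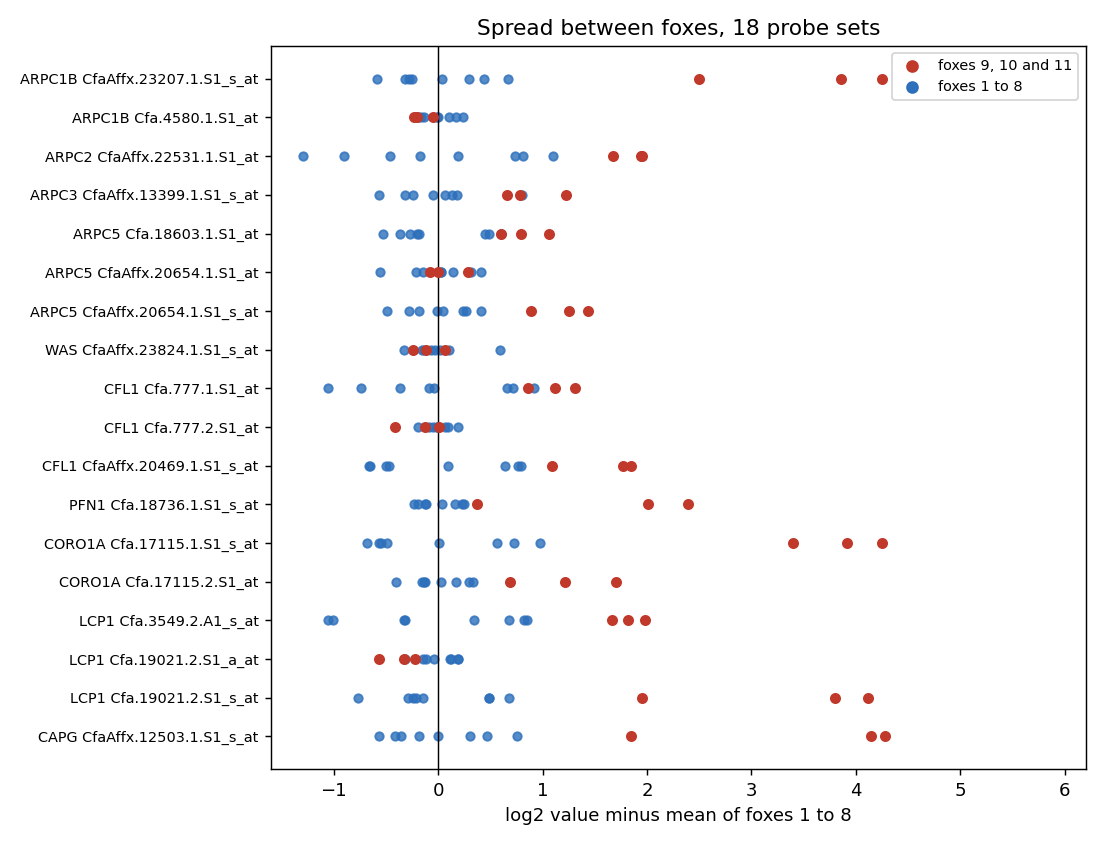
Log2 value minus the mean of foxes 1 to 8 (horizontal axis) for the 18 probe sets, 1 point per fox, with foxes 9, 10 and 11 in red and foxes 1 to 8 in blue. Red points lie to the right of all blue points in 10 probe sets and among or left of them in the even probe sets of ARPC1B, ARPC5, WAS, CFL1 and LCP1.

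Against the control, limma called 8 of 18 probe sets higher in foxes and 0 lower, where 42.1% of all probe sets were called higher. All 5 even probe sets were among the 8, with differences of 0.92 to 1.24 and adjusted p from 0.000899 to 0.00559. Of the 13 with the larger SD, 3 were called, and their SEs ran from 0.52 to 1.79. The second CORO1A probe set was called by limma, at 1.95 (SE 0.61, adjusted p = 0.016), although the first was not. In LCP1 and ARPC5, where the first was called, the further probe set ending in _s_at was not. By limma these differed by 2.20 (SE 1.58, adjusted p = 0.239) in LCP1 and 0.81 (SE 0.59, adjusted p = 0.251) in ARPC5. Of the 10 member probe sets whose name ends in _s_at, which marks probes shared by several transcripts, 8 had the 3 foxes all above, and of the 7 ending in plain _at, 2 did. Over the whole array these shares were 17.6% and 10.2%. The values came with no detection call, so whether the even probe sets measured their transcript above background was not tested.

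The other genes of the actin machinery lay on either side of the control. Of 95 listed, 84 were measured, and limma called 29 higher and 13 lower in foxes, with a median difference of 0.56. Over all genes the shares were 44.6% and 18.5%, so neither share of these 84 exceeded that of all genes. Median centring of the arrays turned the 29 higher and 13 lower into 17 higher and 15 lower. The whole array moved the same way. Of all 15115 genes, 6748 were higher and 2799 lower before centring, and 3923 and 3180 after it. Foxes 9, 10 and 11 were all above foxes 1 to 8 in 23 of the 84 and all below in 5, where 14.2% and 14.6% of all genes were.

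Close relatives of the 10 regulators were listed as ARPC1A, ARPC5L, WASL, CFL2, PFN2, CORO1B, CORO1C, PLS1, PLS3 and GSN, of which PFN2 had no probe set. Of the 9 measured, 4 were lower in foxes than on the control, 0 were higher and 5 were not called. Of all genes 18.5% were called lower and 44.6% higher. PLS1, the plastin of gut and other epithelia, averaged 7.27 ± 0.21 in the foxes (SD, n = 11) and was 10.25 on the control, a limma difference of −2.98 (SE 0.21, adjusted p = 1.91e-07). CFL2, the muscle cofilin, differed by −3.33 (SE 0.63, adjusted p = 0.000939 by limma), and PLS3, a plastin of solid tissues, by −0.60 (SE 0.22, adjusted p = 0.0342 by limma). ARPC5L, an alternative form of ARPC5, differed by −1.53 (SE 0.32, adjusted p = 0.00188 by limma), a call lost after quantile normalization again, at −0.45 (adjusted p = 0.238). The others on that list were not called: ARPC1A (−0.01, 95% interval −0.42 to 0.40), CORO1B (−0.22, −2.70 to 2.26), CORO1C (0.52, −0.56 to 1.61), GSN (0.04, −1.99 to 2.06) and the WAS relative WASL (−0.99, −2.92 to 0.94). After quantile normalization again GSN was called higher in foxes, by 1.19 (adjusted p = 0.0163 by limma), and ARPC1A and CORO1B were uncalled at 0.96 and 0.09, while median centring put GSN at −0.23. Without foxes 9, 10 and 11 limma called WASL and CORO1B lower, at −1.5 (adjusted p = 0.000743) and −0.89 (adjusted p = 0.0288). ARPC1A, unlike ARPC1B, was even, at 13.94, 13.95 and 14.14 in foxes 9, 10 and 11, and at 13.47 to 14.08 in foxes 1 to 8. WASL was not: it stood at 9.40, 9.69 and 8.59 in foxes 9, 10 and 11, above the 6.91 to 7.73 of foxes 1 to 8.

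**Figure D5:**
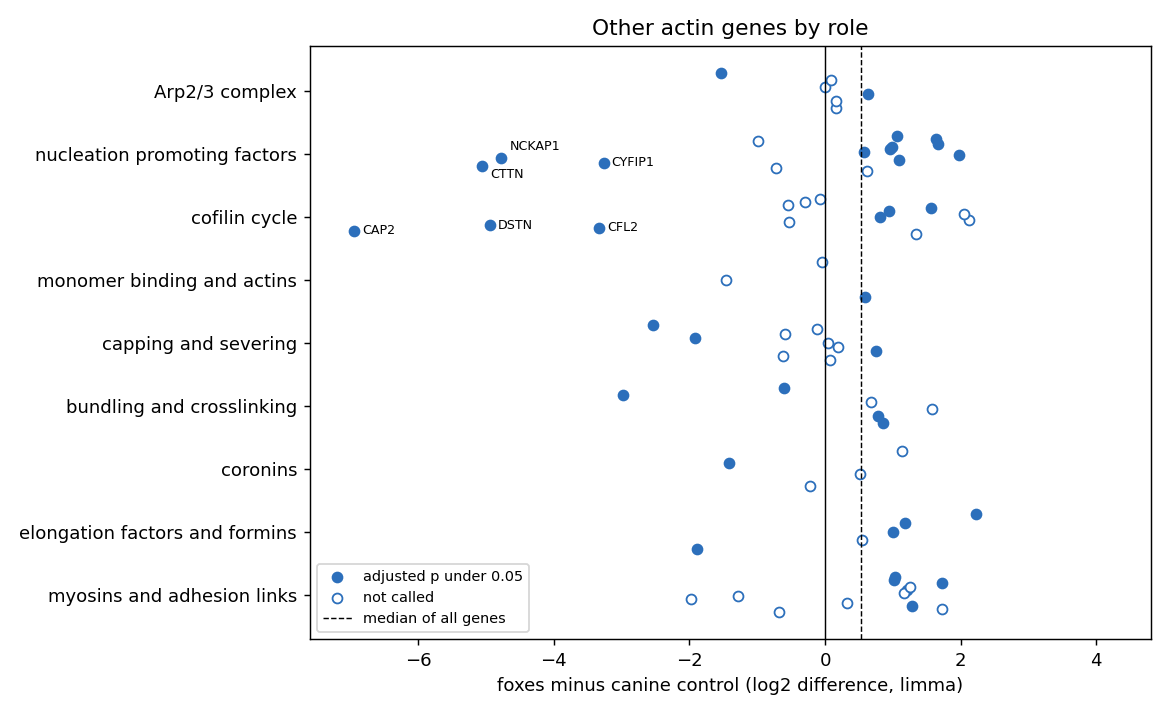
Foxes minus canine control (log2 difference by limma, horizontal axis) for 72 other actin genes, 1 point per gene, in 9 role groups; filled points had an adjusted p under 0.05, the dashed line is the median of all genes, and genes beyond 3 in size are named. CAP2, CTTN, DSTN and NCKAP1 lie farthest to the left.

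Regulators upstream of the Arp2/3 complex went both ways. Of 14 nucleation-promoting genes 8 were higher and 3 lower in foxes, where 44.6% and 18.5% of all genes were. The lower ones were CTTN, cortactin (−5.06, SE 0.39), NCKAP1 (−4.77, SE 0.49) and CYFIP1 (−3.27, SE 0.62), and both NCKAP1 and CYFIP1 belong to the WAVE complex. NCKAP1L, the blood cell counterpart of NCKAP1, was higher, by 1.97; it and EVL were chosen after their values were seen.

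Genes of actin turnover, capping and bundling were called in both directions. The counts below stand beside 44.6% of all genes called higher in foxes and 18.5% called lower. Of 13 cofilin cycle genes 3 were higher and 3 lower in foxes, the lower ones being CFL2, DSTN, an actin-depolymerising protein of the cofilin family (−4.94), and CAP2, a monomer-binding protein of muscle (−6.94). Of 9 capping and severing genes 1 was higher, CAPZB (0.75), and 2 were lower, VIL1 of intestinal villi (−2.53) and SCIN (−1.91). Among 6 bundling genes the actinins ACTN1 (0.85) and ACTN4 (0.78) were higher and PLS1 and PLS3 lower. Of 5 elongation genes VASP (2.23), FMNL1 (1.18) and EVL (1.0) were higher and the formin DAAM1 lower (−1.89). Of 12 myosin and adhesion genes 5 were higher and 0 lower, with TLN1, talin (1.73), MSN, moesin (1.28), and MYO1G (1.21) showing the largest called differences. Of 6 further Arp2/3 genes ACTR3B was higher (0.63) and ARPC5L lower, and of 4 coronins CORO2A was lower (−1.42). All these calls were by limma, at adjusted p under the threshold of 0.05. After median centring those of CAPZB (adjusted p = 0.166), ACTN1, TLN1, MSN and ACTR3B were lost, and after quantile normalization again those of ACTN1, ACTR3B and ARPC5L. None of these genes changed sign under either scaling.

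Actin itself was read by probe sets that disagreed. ACTG1, cytoplasmic gamma-actin, stood at 14.63, 14.31 and 13.68 in foxes 9, 10 and 11, at 9.37 to 11.85 in foxes 1 to 8, and at 13.10 on the control, and was not called (−1.46, 95% interval −5.18 to 2.27). Without foxes 9, 10 and 11 limma called it lower in foxes, at −2.42 (adjusted p = 0.0193). The highest ACTB probe set outside the array controls was even, averaging 7.65 ± 0.13 in the foxes (SD, n = 11) against 7.06 on the control (0.60, SE 0.16, adjusted p = 0.00617 by limma), a call lost under both other scalings. The beta-actin 3' control probe set read 14.47 to 14.58 in foxes 9, 10 and 11, 11.995 to 13.88 in foxes 1 to 8, and 14.15 for the control.

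Genes with the pattern most like CORO1A over the 11 foxes were sought among 7197 genes with a fox mean above that of the median gene. Likeness was the root mean square difference between 2 genes after the fox mean of each was subtracted. The nearest were the ribosomal protein gene RPL13A at 0.33, RPN2, of the enzyme that attaches sugars to proteins, at 0.36, the elongation factor EEF1G at 0.39, ACTG1 at 0.41 and complement factor D, CFD, at 0.41. On the control array, where CORO1A was low at 7.39, RPL13A stood at 13.67 and EEF1G at 13.96. These lay within foxes 9, 10 and 11, which had 13.32 to 13.67 in RPL13A and 13.42 to 14.15 in EEF1G, and above foxes 1 to 8. For the others the nearest gene was PTPN6, a leukocyte phosphatase, for CAPG (0.28), IRF3 for ARPC1B (0.28), AIF1, an actin-binding protein of macrophages, for PFN1 (0.21), and LDHA for ARPC2 (0.17). It was TMEM248 for LCP1 (0.15), UBE2V1 for CFL1 (0.13), ACSS1 for ARPC5 (0.10), NDUFS5 for ARPC3 (0.09) and CBX8 for WAS (0.07). WAS, ARPC5 and ARPC3 also had the smallest SDs over the foxes. The 11 foxes are the only points here, and each is 1 array for all genes.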

How the data were processed

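Blood RNA of 11 foxes and 1 canine control was hybridised to Affymetrix Canine Genome 2.0 arrays. The authors deposited log2 values summarised by RMA; the submitters' processing notes name Affymetrix Expression Console. Software versions and joint normalization of the 12 arrays are not given in the sources used. No label names a batch or says that the 11 fox samples are 11 animals, so p-values measure only the spread between these samples, which may be technical.

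Of 43035 probe sets, 111 Affymetrix controls were left out of the tests. Genes came from 29254 probe sets with 1 symbol, while 439 with several (5 of them naming a member) and 13231 with none were not used for genes. All 10 members had a symbol in the Arctic fox RefSeq annotation. No positions or sequences are given. Of the other actin genes, 1 role group is counted in the totals and otherwise not reported here.

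Foxes minus control was fitted over 42924 probe sets with limma 3.58.1 (lmFit, eBayes) in R 4.3.3, Benjamini-Hochberg adjusted, threshold 0.05; the fit was tested on simulated data. The number of arrays limits the precision. Members and gene lists were chosen with earlier results of these data known. Named genes were all members, their relatives, the actins and, per role group, up to 3 called genes with the largest difference outside all foxes. Alternatives were probe sets above the median mean, quantile normalization again, median centring, trend and robust limma, a minimum difference of 1, the foxes' range, all probe sets of a gene averaged, and foxes left out.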

Additional observations from a re-analysis of the deposited data

How the results depend on the processing

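Over 19 alternatives LCP1 was called higher in foxes in each, with differences from 2.11 to 4.10, and WAS in 18, all but the demand for a difference of at least 1. The further LCP1 probe set ending in _s_at, taken alone with the deposited values, was not called by limma (adjusted p = 0.239). The count of the 10 genes called by limma was 7 after quantile normalization again, 6 without foxes 9, 10 and 11, and 7 by the range of the foxes, against 3. Over all genes 33.2%, 51.6% and 56.1% were higher in foxes under these settings, against 44.6%. With 1 fox left out the count ran from 2 to 3, and the median difference from 1.11 to 1.19. The count of other actin genes, higher and lower calls together, then ran from 41 to 48. Of all genes 42.5% to 47.2% were then called higher and 17.9% to 19.6% lower. The count with an SD of at least 0.5 was 5 after quantile normalization again and 4 within foxes 1 to 8, against 9. CFL1, at −0.07, turned to 1.06 after quantile normalization again and 0.34 with all probe sets averaged. With 1 fox left out it ran from −0.17 to 0.067, above 0 without fox 1 (0.036) or fox 5. ARPC1B turned to −0.54 and ARPC2 to −0.12 without foxes 9, 10 and 11. The cause was not tested. The median difference of all genes was 0.53, 0.41 after quantile normalization again and 0.26 with centred arrays; centring gave 3923 genes higher and 3180 lower in foxes, against 6748 and 2799. No paired analysis was possible because the labels pair no fox with the 1 control array. Without a detection call, no limit could be set for low values.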
